A study of Mus musculus with 12 samples.

Results

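The nuclear genes for the subunits of respiratory complex I were examined in livers of mice that had eaten chow, with or without simvastatin, for 4 weeks. The genes were chosen by name: every gene of the filtered count table whose symbol starts with Nduf followed by a, b, c, s or v and a number, together with Ndufab1, the mitochondrial acyl carrier protein, and without the assembly factors named Ndufaf. This gave 38 genes of the 11968 in the table. Among all genes for which CPM values (a gene's reads scaled to the depth of the library) were deposited, 41 fitted the name. The 3 that the authors' filter had removed were the processed pseudogenes Ndufa11b, Ndufb4c and Ndufs6b, with at most 14 counts in a liver. Ndufb1 was not analysed here. The name rule used no measured value beyond that filter, but the choice was made with earlier results of these data known.

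The livers came from C57BL/6J mice, an inbred strain, which carried no engineered allele that the labels name. There were 4 groups of 3 livers, each from a different mouse: female chow, female statin, male chow and male statin. The mice entered the diets at 8 to 10 weeks of age. The statin groups received simvastatin, an inhibitor of HMG-CoA reductase, the rate-limiting enzyme of cholesterol synthesis, at 0.1 g per kg (of food in the study's methods, of body weight in the labels), and the chow groups received none. Whole liver RNA with poly(A) tails was sequenced, so that a lower level can stand for less RNA per cell or for fewer cells of a type, which cannot be told apart.

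Complex I is the entry point of the respiratory chain. It takes electrons from NADH at the tip of an arm that reaches into the mitochondrial matrix, passes them along iron-sulfur clusters to ubiquinone, and pumps protons through a membrane arm. A set of core subunits, part of them encoded by mitochondrial DNA, does the chemistry, and the many accessory subunits around them are needed for assembly and stability. In liver the complex reoxidizes the NADH that beta-oxidation and the citrate cycle produce. Several nuclear regulators, among them Nrf1, the ETS factor GABP, Yy1 and the estrogen-related receptor alpha (Esrra) with its coactivator Ppargc1a, are known to act on genes of the respiratory chain. Ndufa4 carries a complex I name but is now known as a subunit of complex IV, and its paralog Ndufa4l2 is known as a gene induced by low oxygen.

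Libraries held 46066381 to 60419223 counts, of which the 38 genes together took 0.246% to 0.423%. Levels below are CPM after TMM normalization (a trimmed mean of log ratios that scales the libraries to each other), and differences are log2 fold changes from edgeR's quasi-likelihood model of all 11968 genes, with Benjamini-Hochberg adjusted p-values over those genes and a threshold of 0.05. Hepatocyte markers led every library, with summed levels of 88959 to 163542 CPM over 7 genes, and the 6 markers of muscle and brown fat summed to at most 0.362 CPM. Within groups the livers differed in how counts depended on transcript length. Over the 7632 genes averaging 10 CPM or more, the slope of a gene's log2 deviation on its log2 transcript length lay between -0.17 in liver 1 of the female statin group and 0.17 in liver 1 of the male statin group. The livers with the most negative and the most positive slopes were all on statin, and each statin group held livers of both signs. All 38 subunit genes have shorter transcripts than the median gene of the table (868 against 2789 bases for the medians), so this slope is given beside the results below.

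Measured per kilobase of annotated transcript, so that genes can be compared with each other, the levels spanned a wide range. Ndufa4 was highest, at 482 CPM per kilobase on average over the 12 livers (287 to 727). Ndufb9, a small membrane arm subunit that binds the acyl carrier protein, followed at 326 (208 to 445), and Ndufa6, its counterpart in the matrix arm, stood at 205 (165 to 278). These 3 ranges overlapped between neighbours in the order. Of the core subunits, Ndufv1 stood at 98.2 (rank 17 of 38) and Ndufs1 at 49.7 (rank 28). At the low end were Ndufb2 at 19, Ndufb4 at 12.9 and Ndufa4l2 at 2.27 CPM per kilobase (0.916 to 8.30), and the range of Ndufa4l2 met that of Ndufb4 alone, through liver 3 of the female statin group. For Ndufb4, whose processed copy Ndufb4c is annotated, reads could have been shared with copies or lost in counting. Another annotated gene overlaps 20 of the 38, on the same strand in 6 of them (Ndufa10, Ndufa13, Ndufb2, Ndufb8, Ndufb9 and Ndufc2), and the strand setting of the counting was not given in the sources used here, so the levels of those genes are less certain. The lengths are those of 1 annotated transcript per gene, so a gene whose liver transcript differs would be placed wrongly in this order.

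Statin feeding left no subunit gene called in either sex. With edgeR, 0 of 38 genes passed the adjusted threshold in females, where 0.100% of all genes tested passed, and 0 of 38 in males, where 0% passed. DESeq2 and limma also called 0 of 38 in both sexes, where DESeq2 called 270 of 11968 genes in females and 4 in males, and limma 13 and 0. At an unadjusted p under 0.05 stood 1 subunit gene in females (Ndufa4l2; 10.5% of all genes) and 0 in males (1.96% of all genes). The median log2 fold change of the 38 genes was -0.091 in females and 0.078 in males, beside 0.013 and 0.0036 over all genes tested. The fold change was below 0 for 26 of 38 genes in females and above 0 for 30 of 38 in males. With the dependence on transcript length removed from each liver, the median was -0.11 in females and 0.022 in males. Some of the 30 male values then lay below 0, such as those of Ndufa1 (-0.063), Ndufa11 (-0.013) and Ndufs5 (-0.021). Of the markers of liver cells 0 were called with edgeR in either sex. In females the hepatocyte markers had a median of 0.34 (6 of 7 above 0, 3 at an unadjusted p under 0.05) and the stellate cell markers -0.44 (0 of 7 above 0, 1 at an unadjusted p under 0.05), and in males they had -0.078 and -0.022. The Kupffer cell and macrophage markers had 0.087 (10 of 10 above 0) in females and -0.097 (1 of 10 above 0) in males. The blood markers had 0.098 (4 of 5 above 0) in females and -0.33 (1 of 5 above 0, 1 at an unadjusted p under 0.05) in males. In the same order the endothelial markers had -0.066 and -0.010, and the 2 cholangiocyte markers tested -0.37 and -0.0081. The 1 T and B cell marker tested had 0.86 and -0.72. The part of these lists in the values of the subunit genes was not tested. The subunit genes are measured in the same libraries, so their counts are not independent events. In females the median of the subunit genes was 0.067 without liver 2 of the statin group and to -0.22 without liver 1 of that group. In males it was -0.050 without liver 3 of the statin group and 0.26 without liver 1 of that group.

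The intervals show which sizes of change these libraries leave possible. In females the 95% interval of 37 of 38 genes lay within 1 on the log2 scale in either direction, and that of 15 genes within 0.5. In males these counts were 36 and 18. The exceptions at 1 were Ndufa4l2 in both sexes and, in males, Ndufb8, whose interval of -0.40 to 1.00 reached just past it. The standard error per gene ran from 0.11 to 0.58 in females, with a median of 0.20. Livers of the 2 diets did not overlap in 3 of 38 genes in females (12% of all genes) and in 0 of 38 in males (7.95% of all genes).

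**Figure D1:**
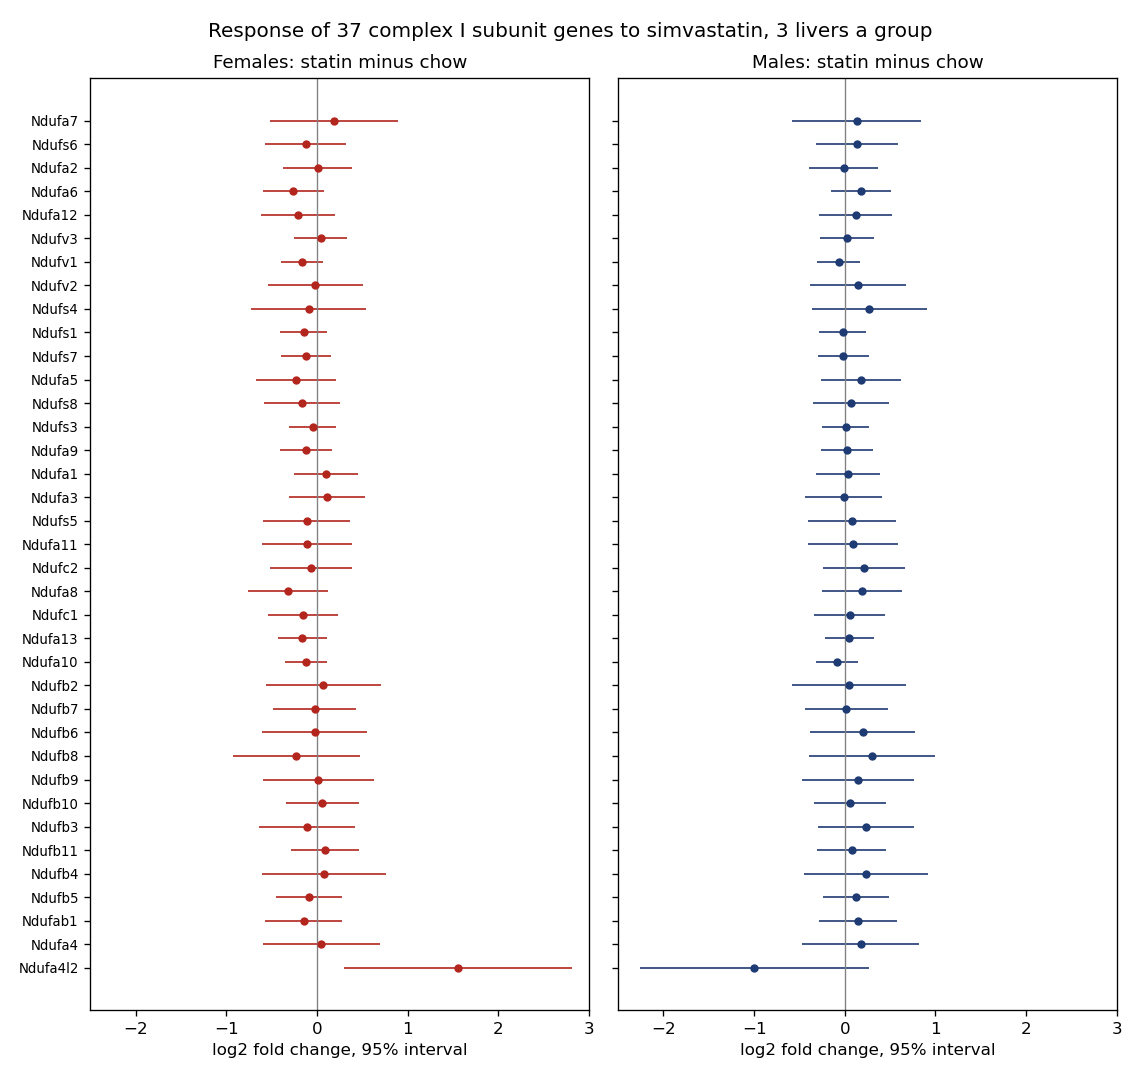
Log2 fold changes of statin against chow with 95% intervals from edgeR for 37 genes, in females (left) and males (right), 3 livers a group; genes are ordered by place in the complex (N module, Q module, proximal and distal membrane arm, Ndufab1, Ndufa4 and Ndufa4l2) and then by transcript length. Every interval but that of Ndufa4l2 in females includes 0.

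Among the 7 core subunits, all 7 fold changes were below 0 in females (median -0.12) and 4 of 7 in males (median -0.015), with none called. With the length dependence removed from each liver these medians were -0.12 and -0.021. Ndufv1, which holds the flavin that accepts electrons from NADH, was at 175, 160.2 and 183 CPM in female chow, 156, 151 and 155 in female statin, 162, 160.2 and 178 in male chow and 164, 162 and 151 in male statin livers. In females every statin liver lay below every chow liver, with a log2 fold change of -0.16 (SE 0.11, 95% interval -0.40 to 0.070) and an adjusted p of 0.700, and in males the diets overlapped, at -0.068 (SE 0.11, 95% interval -0.30 to 0.16). The gene lies at chr19:4007384-4012806 (GRCm38, minus strand). Ndufs1, the large iron-sulfur subunit next to it, was at 141, 124 and 155 CPM in female chow, 131, 118 and 131 in female statin, 119, 123 and 133 in male chow and 127, 130.0 and 114 in male statin livers. The diets overlapped in both sexes, with log2 fold changes of -0.15 (SE 0.12, 95% interval -0.41 to 0.11) in females and -0.020 (SE 0.12, 95% interval -0.28 to 0.24) in males.

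Ndufv2, the iron-sulfur partner of Ndufv1, was at 88.4, 114 and 116 CPM in female chow, 136, 71.7 and 107 in female statin, 106, 97.3 and 82.5 in male chow and 74.6, 111 and 131 in male statin livers. In contrast to Ndufv1 it varied widely within both statin groups, and its fold changes were -0.018 (SE 0.24, 95% interval -0.55 to 0.51) in females and 0.15 (SE 0.24, 95% interval -0.38 to 0.68) in males. Ndufs7, which carries the last iron-sulfur cluster before ubiquinone, was at 63.8, 66.5 and 74.1 CPM in female chow, 70.6, 52.6 and 64.6 in female statin, 62.5, 56.9 and 58 in male chow and 53.9, 58.5 and 63.3 in male statin livers. Its values were -0.12 (SE 0.13, 95% interval -0.40 to 0.15) in females and -0.015 (SE 0.13, 95% interval -0.29 to 0.26) in males.

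Ndufs3, a core subunit of the Q module and an early building block in assembly, was at 77.2, 82 and 87.1 CPM in female chow, 84.3, 68.6 and 85.2 in female statin, 85, 86.3 and 82.9 in male chow and 77.2, 86.2 and 93.1 in male statin livers. Its fold changes were close to 0, at -0.048 (SE 0.12, 95% interval -0.31 to 0.21) in females and 0.013 (SE 0.12, 95% interval -0.25 to 0.27) in males. Ndufs8, a ferredoxin-like core subunit, was at 75.9, 95.6 and 86 CPM in female chow, 100.3, 57.3 and 72.2 in female statin, 74.7, 72 and 63.2 in male chow and 60.4, 74.3 and 85.3 in male statin livers. It was lowest in liver 2 of the female statin group and highest in liver 1 of the same group, and its fold changes were -0.16 (SE 0.19, 95% interval -0.59 to 0.26) in females and 0.069 (SE 0.19, 95% interval -0.35 to 0.49) in males.

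The N module, the NADH end of the matrix arm, has 10 of the genes: the core subunits Ndufv1, Ndufv2 and Ndufs1 and 7 accessory subunits. Its median log2 fold change was -0.11 in females and 0.13 in males, with 0 called, and -0.12 and 0.026 with the length dependence removed. Ndufa6, a subunit of the LYR family that binds the acyl carrier protein, was at 113, 128 and 141 CPM in female chow, 115, 106 and 97.4 in female statin, 123, 112 and 117 in male chow and 109, 125 and 164 in male statin livers. In females the statin livers reached down to 97.4 and overlapped the chow livers in 1 liver, with a log2 fold change of -0.26 (SE 0.15, 95% interval -0.60 to 0.073) and an adjusted p of 0.641. In males it was 0.18 (SE 0.15, 95% interval -0.15 to 0.52), where liver 3 of the statin group was the highest of all 12. Ndufa7 was at 82, 117 and 116 CPM in female chow, 156, 69.3 and 133 in female statin, 118, 92.8 and 81.7 in male chow and 62.8, 108 and 150.0 in male statin livers, and the statin livers of each sex ranged beyond the chow livers on both sides. Its fold changes were 0.19 (SE 0.33, 95% interval -0.52 to 0.90) in females and 0.13 (SE 0.33, 95% interval -0.58 to 0.84) in males.

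Ndufs4, whose loss destabilizes the N module and is a known cause of Leigh syndrome, was at 59.5, 85 and 79.8 CPM in female chow, 96.5, 45.7 and 68.4 in female statin, 78.3, 62.4 and 54.6 in male chow and 49.98, 81.6 and 105 in male statin livers. Its fold changes were -0.091 (SE 0.29, 95% interval -0.73 to 0.54) in females and 0.27 (SE 0.29, 95% interval -0.36 to 0.91) in males, and the statin livers of each sex again lay on both sides of the chow livers. Ndufa12, which takes the place of an assembly factor late in assembly, was at 32.1, 36.7 and 38 CPM in female chow, 39.4, 24.9 and 28 in female statin, 31.2, 27.1 and 25.4 in male chow and 23.6, 32.2 and 35.2 in male statin livers. Its values were -0.21 (SE 0.19, 95% interval -0.62 to 0.19) in females and 0.12 (SE 0.19, 95% interval -0.29 to 0.53) in males. Ndufv3, a short accessory subunit of the N module, was at 59.9, 63.4 and 63.9 CPM in female chow, 69.6, 53.2 and 69.5 in female statin, 72.4, 66.2 and 64.3 in male chow and 59.7, 68.2 and 78.9 in male statin livers, with 0.039 (SE 0.14, 95% interval -0.26 to 0.34) in females and 0.027 (SE 0.14, 95% interval -0.27 to 0.32) in males. The other 2 genes of the module, Ndufa2 and Ndufs6, lay between -0.13 and 0.14 in both sexes.

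In the Q module of 6 genes the median log2 fold change was -0.12 in females and 0.020 in males, and -0.13 and -0.0015 with the length dependence removed. Ndufa5, an accessory subunit on its flank, was at 34.8, 41.6 and 49.4 CPM in female chow, 43.6, 28.5 and 34.9 in female statin, 38.9, 34.6 and 33 in male chow and 29.9, 41.6 and 49.3 in male statin livers. The female value was -0.23 (SE 0.20, 95% interval -0.67 to 0.21) and the male value 0.18 (SE 0.20, 95% interval -0.26 to 0.62), and the diets overlapped in both. Ndufa9, a subunit with a dehydrogenase-like fold near the ubiquinone site, stayed between 101 and 138 CPM over the 12 livers, with fold changes of -0.12 (SE 0.13, 95% interval -0.41 to 0.17) and 0.027 (SE 0.13, 95% interval -0.26 to 0.32).

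The proximal membrane arm, with 9 genes, had medians of -0.11 in females and 0.057 in males. With the length dependence removed from each liver these were -0.13 and -0.013. Ndufa8, a subunit of the intermembrane space face, had the lowest fold change of the 38 genes in females. It lies at chr2:36036326-36049406 (GRCm38, minus strand). It was at 119, 138 and 121 CPM in female chow, 126, 78.4 and 97.1 in female statin, 96.7, 84.7 and 85.8 in male chow and 72.7, 106 and 126 in male statin livers. Liver 1 of the female statin group lay among the chow livers and the other 2 below them, for a log2 fold change of -0.32 (SE 0.20, 95% interval -0.77 to 0.12) and an adjusted p of 0.680, and in males it was 0.19 (SE 0.20, 95% interval -0.25 to 0.63). Ndufa10, a subunit with a kinase-like fold, was at 139, 123 and 145 CPM in female chow, 126, 118 and 129 in female statin, 132, 139 and 136 in male chow and 134, 122 and 126 in male statin livers. Its values of -0.12 (SE 0.11, 95% interval -0.36 to 0.11) in females and -0.090 (SE 0.11, 95% interval -0.32 to 0.14) in males came with some of the smallest standard errors of the set.

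Ndufa3, a small membrane-spanning subunit, was at 57.6, 68.6 and 69.6 CPM in female chow, 77.4, 52.8 and 81.2 in female statin, 76.4, 67.2 and 65.1 in male chow and 51.7, 70.4 and 84.8 in male statin livers. It gave 0.11 (SE 0.19, 95% interval -0.31 to 0.53) in females and -0.013 (SE 0.19, 95% interval -0.44 to 0.41) in males. Ndufa1, a membrane subunit encoded on the X chromosome, was at 50.7, 55.4 and 59.8 CPM in female chow, 62.8, 48.7 and 66.1 in female statin, 62.2, 58.6 and 55.2 in male chow and 47.3, 59.997 and 73.2 in male statin livers, with 0.098 (SE 0.16, 95% interval -0.26 to 0.45) and 0.037 (SE 0.16, 95% interval -0.32 to 0.39). Ndufc2 was at 56.3, 66.2 and 71.1 CPM in female chow, 74.9, 48.3 and 61.5 in female statin, 58.6, 53.8 and 49.4 in male chow and 43, 67.3 and 76.7 in male statin livers, with -0.068 (SE 0.21, 95% interval -0.52 to 0.38) and 0.21 (SE 0.21, 95% interval -0.24 to 0.66). In none of these 3 genes were the diets separated. Ndufa13, known also as GRIM-19, was the one other gene whose female statin livers, at 122, 101 and 115 CPM, lay below every female chow liver, at 124, 123 and 132, with a log2 fold change of -0.16 (SE 0.12, 95% interval -0.43 to 0.10) and an adjusted p of 0.765. The remaining 3 genes of this arm, Ndufa11, Ndufc1 and Ndufs5, had female values between -0.16 and -0.11 and male values between 0.057 and 0.095.

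The distal membrane arm, with 10 genes, had a median of -0.0046 in females and 0.14 in males, where all 10 fold changes were above 0 and none was called. With the length dependence removed from each liver the medians were -0.028 and 0.066. In males Ndufb2 (-0.061), Ndufb7 (-0.060) and Ndufb10 (-0.013) were then below 0. Ndufb8, a subunit often used on blots as a readout of assembled complex I, was at 82.8, 116 and 100.01 CPM in female chow, 127, 49.8 and 78.1 in female statin, 77.3, 67.1 and 56.5 in male chow and 50.7, 87.5 and 109 in male statin livers. It lies at chr19:44548572-44555440 (GRCm38, minus strand). Both statin groups spanned more than the chow livers of their sex, and the fold changes were -0.23 (SE 0.32, 95% interval -0.93 to 0.47) in females and 0.30 (SE 0.32, 95% interval -0.40 to 1.00) in males. Ndufb3, a small membrane-spanning subunit, was at 31.2, 41.3 and 41.9 CPM in female chow, 44.6, 24.4 and 37 in female statin, 39.4, 36.7 and 27.6 in male chow and 28.8, 44.1 and 49.3 in male statin livers, with -0.11 (SE 0.24, 95% interval -0.64 to 0.42) in females and 0.24 (SE 0.24, 95% interval -0.29 to 0.77) in males. Ndufb4 was at 9.57, 12.7 and 14.3 CPM in female chow, 17.5, 7.28 and 13.9 in female statin, 13.2, 11.4 and 9.64 in male chow and 8.33, 14.4 and 17.6 in male statin livers, with 0.080 (SE 0.32, 95% interval -0.61 to 0.77) and 0.23 (SE 0.32, 95% interval -0.45 to 0.92). The other 7 genes of this arm lay between -0.092 and 0.088 in females and between 0.017 and 0.20 in males. Ndufab1, which also serves mitochondrial fatty acid synthesis, was at 42.9, 52 and 53.8 CPM in female chow, 54.9, 32.8 and 46.6 in female statin, 44.2, 41.5 and 37.3 in male chow and 35.6, 45.4 and 55.1 in male statin livers, with -0.15 (SE 0.20, 95% interval -0.58 to 0.28) and 0.15 (SE 0.20, 95% interval -0.28 to 0.57).

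Ndufa4 was at 212, 317 and 277 CPM in female chow, 366, 175 and 291 in female statin, 344, 296 and 249 in male chow and 212, 349 and 443 in male statin livers. It was lowest in liver 2 of female statin and highest in liver 3 of male statin, and the fold changes were 0.048 (SE 0.29, 95% interval -0.59 to 0.69) in females and 0.18 (SE 0.30, 95% interval -0.47 to 0.82) in males. Its paralog Ndufa4l2 stood apart from the other 37 genes in level and pattern. It lies at chr10:127514967-127517154 (GRCm38, plus strand), where Shmt2 overlaps it on the other strand, and its levels were 1.32, 1.15 and 1.35 CPM in female chow, 1.52, 1.96 and 7.76 in female statin, 1.25, 1.72 and 3.96 in male chow and 1.27, 1.33 and 0.855 in male statin livers. Liver 3 of the female statin group and liver 3 of the male chow group were high, and the other 10 livers lay between 0.855 and 1.96 CPM. In females every statin liver lay above every chow liver, though the nearest 2 were close, at 1.52 and 1.35 CPM. The log2 fold change was 1.55 (SE 0.58, 95% interval 0.30 to 2.81) with an unadjusted p of 0.0196 and an adjusted p of 0.356. Without liver 3 of the female statin group the value was 0.47 (SE 0.42). In males it was -0.998 (SE 0.58, 95% interval -2.26 to 0.27), and -0.37 without liver 3 of the male chow group. Liver 3 of the female statin group also had the highest summed level of the 5 blood markers. These sums ran over 169 to 192 CPM in female chow, 147 to 283 in female statin, 226 to 239 in male chow and 182 to 248 in male statin, with 0 of 5 called by diet in either sex and none at 0 in every liver. The summed level of the 7 stellate cell markers was the lowest of its group in the same liver (3 of the 7 single markers were lowest there), with sums of 317 to 365 CPM in female chow, 230.3 to 346 in female statin, 201 to 212 in male chow and 184 to 255 in male statin and 0 of 7 called by diet. The 5 cholangiocyte markers summed to 18.9 CPM in that liver, the lowest of all 12, and the 10 markers of Kupffer cells and macrophages to 586 CPM, the lowest of the 6 female livers. The neutrophil markers summed to 4.999 CPM over 5 genes, the highest of all 12. The part of these lists in the Ndufa4l2 value was not tested.

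**Figure D2:**
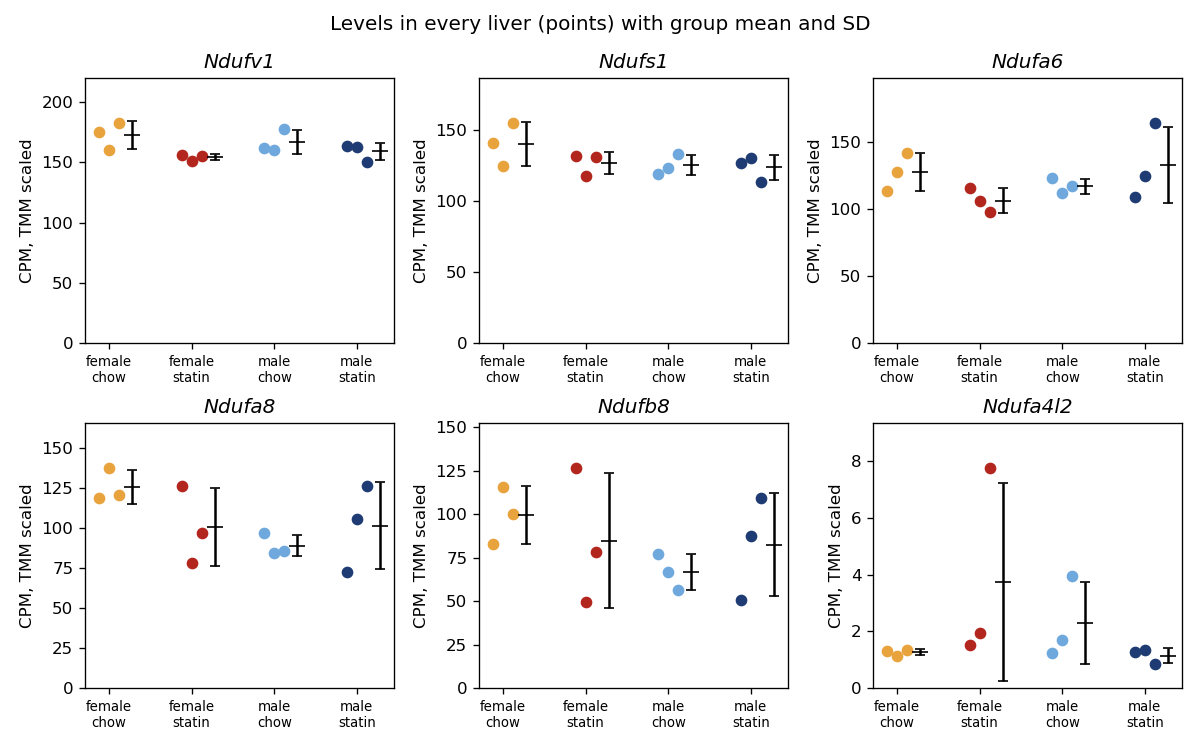
TMM-normalized CPM of 6 genes in every liver (points) with the group mean and SD (bars) of 3 livers. Ndufv1 and Ndufs1 vary little, Ndufa8 and Ndufb8 spread wider within the statin than within the chow groups, and the Ndufa4l2 means of female statin and male chow rest on 1 liver each.

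The response in females minus that in males was also tested gene by gene. With edgeR, 0 of 38 genes passed the adjusted threshold, beside 0% of all genes tested, and 1 of 38 (Ndufa4l2) had an unadjusted p under 0.05, beside 8.01% of all genes. DESeq2 and limma also called 0 of 38, where they called 130 and 0 of 11968 genes. The difference was below 0 for 29 of 38 genes, with a median of -0.15, beside 0.0072 for all genes tested. The most negative values belonged to Ndufb8 at -0.53 (SE 0.45, 95% interval -1.52 to 0.46), Ndufa8 at -0.51 (SE 0.29, 95% interval -1.14 to 0.12) and Ndufa6 at -0.44 (SE 0.22, 95% interval -0.92 to 0.031), with adjusted p-values of 0.901, 0.773 and 0.677. The most positive were Ndufa4l2 at 2.55 (SE 0.82, 95% interval 0.77 to 4.33), Ndufa3 at 0.12 (SE 0.28, 95% interval -0.48 to 0.72) and Ndufa1 at 0.061 (SE 0.23, 95% interval -0.44 to 0.56), with adjusted p-values of 0.405, 0.992 and 0.995. When every gene with a count was kept in the fit, the difference for Ndufa4l2 was 2.54 with an adjusted p of 0.0443, past the threshold as were 0.392% of all genes in that fit, and without liver 3 of the female statin group under the usual filter it was 1.46 with an adjusted p of 0.727.

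Females and males were also compared on chow, which gives the levels from which the diets were read. With edgeR, 0 of 38 subunit genes passed the adjusted threshold, where 10.4% of all genes tested passed, and 1 of 38 (Ndufa8) had an unadjusted p under 0.05, beside 24.9% of all genes. DESeq2 and limma also called 0 of 38, where they called 1946 and 1311 of 11968 genes. Livers of the sexes did not overlap in 8 of 38 genes, beside 37.7% of all genes. The median log2 difference of females over males was 0.12 (28 of 38 above 0), beside -0.0094 over all genes tested.

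Ndufa8 had the smallest p of the set in this comparison. Its mean was 126 ± 10.5 CPM in female chow and 89 ± 6.62 in male chow livers (SD, n = 3), every female liver lay above every male liver, and the log2 difference was 0.50 (SE 0.20, 95% interval 0.052 to 0.94) with an unadjusted p of 0.0314 and an adjusted p of 0.149. With the dependence on transcript length removed from each liver it was 0.45 (SE 0.10) with an adjusted p of 0.0136, past the threshold, and it was the 1 subunit gene of 38 called under that correction, beside 14.5% of all genes. Ndufb8 differed by 0.57 (SE 0.32, 95% interval -0.13 to 1.27) and Ndufa12 by 0.35 (SE 0.19, 95% interval -0.055 to 0.76), and in both every female liver lay above every male liver. The lowest differences were those of Ndufa4l2 at -0.86 (SE 0.58, 95% interval -2.11 to 0.40), Ndufa4 at -0.14 (SE 0.30, 95% interval -0.78 to 0.50) and Ndufv3 at -0.12 (SE 0.14, 95% interval -0.41 to 0.18), of which Ndufv3 alone had all its female livers below the male ones. With 1 liver left out, the Ndufa4l2 difference ran from -1.15 to -0.22. The other non-overlapping genes, Ndufa13, Ndufc1, Ndufs7 and Ndufs8, were higher in females by 0.16 to 0.31. The X-linked genes gave -0.085 (SE 0.16, 95% interval -0.44 to 0.27) for Ndufa1 and -0.015 (SE 0.17, 95% interval -0.39 to 0.36) for Ndufb11. Markers of other cells differed between the same livers. Of the 10 markers of Kupffer cells and macrophages 6 were called, all higher in females, with summed levels of 670.1 to 805 CPM in female and 339 to 524 in male chow livers, and of the 7 stellate cell markers 2 were called, with sums of 317 to 365 and 201 to 212 CPM. Of the 7 endothelial markers 1 was called, higher in females, with all 7 above 0, a median log2 difference of 0.53 and sums of 324 to 348 and 212 to 293 CPM. Of the 7 hepatocyte markers 3 were called, all lower in females, with 3 of 7 above 0, a median of -0.49 and sums of 105052 to 138633 and 88959 to 138405 CPM. Of the 5 blood markers 1 was called, lower in females, while the other 4 were above 0 and the median was 0.19. The part of these lists in these differences was not tested.

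Most subunit genes differed between livers of 1 group, and most of them in the same order. In female statin, liver 1 was the highest of the 3 for 32 of 38 genes and liver 2 the lowest for 36. In male statin, liver 3 was the highest for 33 and liver 1 the lowest for 33. In the chow groups the lowest liver was number 1 for 33 genes in females and number 3 for 29 in males. The median of the 38 genes, as a deviation of log2(CPM + 1) from each gene's mean over all livers, was 0.29, -0.35 and 0.037 in the female statin livers and -0.33, 0.058 and 0.30 in the male statin livers. In chow livers it was -0.11, 0.14 and 0.17 in females and 0.065, -0.069 and -0.18 in males. For 27 of 38 genes the range of the female statin livers held every female chow liver, and for 32 of 38 the same was so in males. In each group the liver with the lowest median of the subunit genes had the highest summed level of the 7 hepatocyte markers, at 138633 (female chow), 163542 (female statin), 138405 (male chow) and 106695 (male statin) CPM, and of the 7 endothelial markers, at 348 (female chow), 389.7 (female statin), 293 (male chow) and 305 (male statin) CPM. The same was so of the 5 cholangiocyte markers, at 48.1 (female chow), 51.6 (female statin), 30.2 (male chow) and 31.7 (male statin) CPM. Single markers did not all follow these sums. The endothelial marker Clec4g was the lowest of its group in those livers of female chow (74.5 CPM), female statin (69.7) and male statin (52). Other lists were mixed over the same livers. The Kupffer cell and macrophage sum was the lowest of its group in female chow (670.1 CPM) and male statin (351). The blood sum was the lowest in female statin (147) and male statin (182). The stellate sum was the lowest in male chow (201) and the highest in female statin (346) and male statin (255). The part of these lists in this pattern was not tested.

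**Figure D3:**
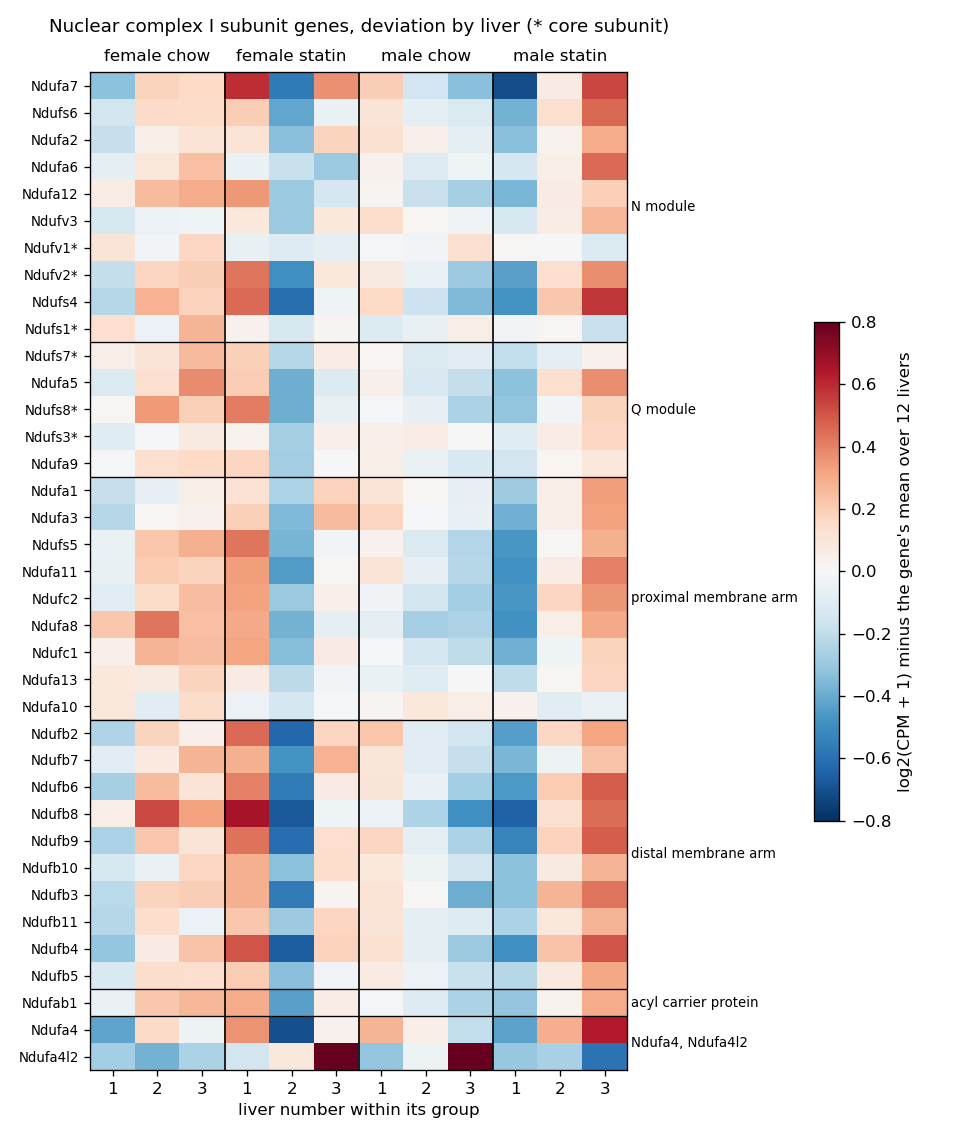
Deviation of log2(CPM + 1) from the gene's mean over 12 livers, for 37 genes (rows, ordered by place in the complex and transcript length) and 12 livers (columns, 3 per group); red is above and blue below the mean, and colours are capped at 0.8 in either direction, which Ndufa4l2 exceeds in 2 livers. Columns of 1 colour run through most genes, lowest in liver 2 of female statin and liver 1 of male statin, while Ndufv1, Ndufs1 and Ndufa10 stay pale.

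The likeness of each gene to the rest was measured as Pearson's r between its deviations from the group means and the mean deviations of the other 37 genes, over 12 livers. This r was above 0.9 for 31 of 38 genes. It was highest for Ndufb4 (0.995), Ndufa7 (0.993) and Ndufab1 (0.991) and lowest for Ndufv1 (-0.224), Ndufa4l2 (-0.146) and Ndufa10 (-0.0416). The points are livers that share their library with every gene compared, so the values describe these libraries and carry no test. Ndufs1, at 0.0120, was likewise apart from the rest.

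The median of the subunit genes moved with the length slope of the liver. The 2 livers with the most negative slopes, -0.17 in liver 1 of female statin and -0.12 in liver 3 of male statin, had the highest medians of the subunit genes, and the 2 with the most positive, 0.15 in liver 2 of female statin and 0.17 in liver 1 of male statin, had the lowest. Other genes in the same length range (527 to 1672 bases, the 10th to 90th percentile of the subunit genes, 1505 genes at 10 CPM or more) moved the same way, with medians of 0.19 and 0.18 in the first pair of livers and -0.24 and -0.20 in the second. The subunits of complexes II to V moved with them too, at 0.35 and 0.31 in the first pair and -0.43 and -0.42 in the second. The part of the length dependence in these differences between livers was not tested beyond its removal. After the dependence on length was removed from each liver, the median of the 38 genes lay between -0.094 (liver 2 of female statin) and 0.13 (liver 3 of female chow).

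**Figure D4:**
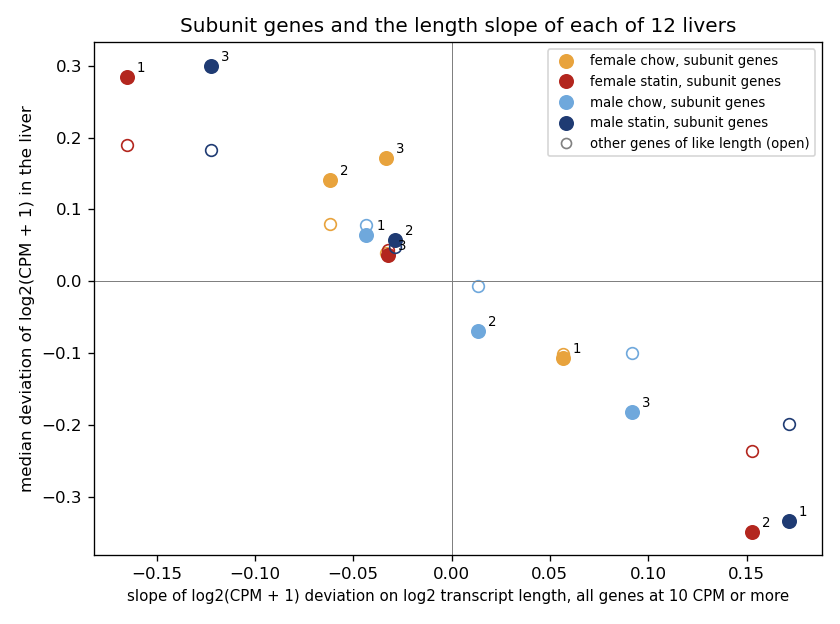
Each point is 1 of 12 livers: x axis, slope of the log2 deviation on log2 transcript length over all genes at 10 CPM or more; y axis, median deviation of log2(CPM + 1) of the 38 subunit genes (filled) or of 1505 other genes of like length (open), with liver numbers beside filled points. Both medians fall from the upper left (liver 1 of female statin, liver 3 of male statin) to the lower right (liver 2 of female statin, liver 1 of male statin).

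Spread between livers of a group differed from gene to gene. The within-group SD of log2(CPM + 1), pooled over the 4 groups, had a median of 0.263 over the 38 genes, against 0.225 in other genes of the same length range and 0.199 in all other genes at 10 CPM or more. With the length dependence removed these medians were 0.105, 0.172 and 0.172, so that the subunit genes went from above to below the other genes. The highest liver was more than 2 times the lowest in 10 of 38 genes (Ndufa4, Ndufa4l2, Ndufa7, Ndufb2, Ndufb3, Ndufb4, Ndufb6, Ndufb8, Ndufb9 and Ndufs4) and under 1.25 times in 3, Ndufa10 and Ndufv1 among them. Ndufs4 and Ndufv2 have annotated lengths of 1698 and 1697 bases. Their SDs of 0.421 and 0.342 were near those of the shorter Ndufa4 (0.427) and Ndufb3 (0.342) and stood at 0.352 and 0.271 after the correction, the highest of the set after Ndufa4l2 at 0.642.

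**Figure D5:**
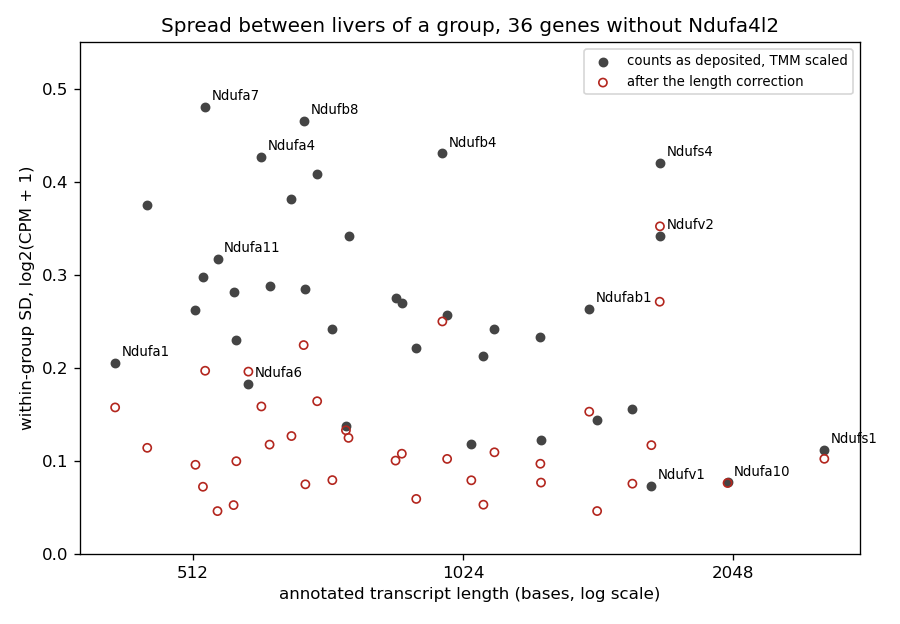
Within-group SD of log2(CPM + 1), pooled over 4 groups of 3 livers, against annotated transcript length in bases (log axis) for 36 genes without Ndufa4l2, before (filled) and after (open) the length correction. Short genes such as Ndufa7 and Ndufb8 had the largest SDs before the correction, Ndufs4 and Ndufv2 the largest after it, and Ndufv1 and Ndufa10 are low before it.

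Because most of the genes moved together between livers, the promoters of the 3 genes most like the rest, of 2 of the 3 least like it, and of Ndufa8 are shown. They are the 250 bases before the RefSeq start (GRCm38.p6), 5′ to 3′ on the strand of the gene. Capitals mark letters that match a motif known for a regulator of respiratory genes, on either strand: the 10-base consensus of Nrf1 (capitals in Ndufb4 and Ndufa8), CCGGAAG for ETS factors such as GABP, AAGATGGCG for Yy1, CAAGGTCA for estrogen-related receptors, and TCACNCCAC for Srebf2, the regulator of cholesterol synthesis genes. No matches of different motifs overlapped in these genes. These 250-base stretches, not the genes, lie at chr16:37654369-37654618 for Ndufb4 (minus strand), chr17:33824322-33824571 for Ndufa7 (plus), chr7:122101849-122102098 for Ndufab1 (minus), chr1:92473759-92474008 for Ndufa10 (minus), chr19:4012756-4013005 for Ndufv1 (minus) and chr2:36049339-36049588 for Ndufa8 (minus).
Ndufb4: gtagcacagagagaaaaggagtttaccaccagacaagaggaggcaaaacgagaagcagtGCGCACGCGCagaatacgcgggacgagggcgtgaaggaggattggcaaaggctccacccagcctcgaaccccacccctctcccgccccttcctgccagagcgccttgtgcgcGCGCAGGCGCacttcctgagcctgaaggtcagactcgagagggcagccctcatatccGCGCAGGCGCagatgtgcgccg
Ndufa7: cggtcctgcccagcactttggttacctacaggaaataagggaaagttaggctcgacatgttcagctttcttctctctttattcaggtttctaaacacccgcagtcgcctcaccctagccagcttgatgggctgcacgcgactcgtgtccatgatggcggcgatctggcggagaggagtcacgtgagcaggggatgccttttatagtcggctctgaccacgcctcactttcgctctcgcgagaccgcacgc
Ndufab1: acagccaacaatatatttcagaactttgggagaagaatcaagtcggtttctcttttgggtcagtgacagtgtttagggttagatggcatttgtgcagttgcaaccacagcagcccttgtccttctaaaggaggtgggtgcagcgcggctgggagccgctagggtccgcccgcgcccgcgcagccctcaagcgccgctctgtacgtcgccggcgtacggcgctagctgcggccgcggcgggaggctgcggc
Ndufa10: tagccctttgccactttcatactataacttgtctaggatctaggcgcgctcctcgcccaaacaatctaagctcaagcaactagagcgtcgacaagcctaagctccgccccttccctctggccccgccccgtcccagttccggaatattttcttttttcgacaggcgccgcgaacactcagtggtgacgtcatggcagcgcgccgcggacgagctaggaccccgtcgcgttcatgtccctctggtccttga
Ndufv1: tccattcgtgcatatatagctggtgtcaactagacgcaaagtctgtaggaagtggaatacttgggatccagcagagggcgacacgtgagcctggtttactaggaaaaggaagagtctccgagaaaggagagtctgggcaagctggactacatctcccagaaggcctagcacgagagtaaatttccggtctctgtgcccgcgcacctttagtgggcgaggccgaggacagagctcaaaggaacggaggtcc
Ndufa8: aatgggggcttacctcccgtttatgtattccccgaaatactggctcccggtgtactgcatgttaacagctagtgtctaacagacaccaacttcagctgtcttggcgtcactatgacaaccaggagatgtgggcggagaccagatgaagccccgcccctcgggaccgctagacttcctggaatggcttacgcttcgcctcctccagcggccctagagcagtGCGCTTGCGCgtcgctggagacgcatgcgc

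Ndufb4 held 3 matches to the Nrf1 motif in this stretch and Ndufa8 held 1, and the other 4 promoters held no match to the 5 motifs. A match is a description of the letters and no evidence of binding, and no match says only that these letters are not in this window. Promoter windows of 300 bases, which run 50 bases past the start, were at hand for 33 of the 38 genes. For 18 of the 33 the RefSeq start lay within 50 bases of the start of the annotation used for lengths. The Nrf1 motif was found in 7 of 33 (Ndufa11, Ndufa5, Ndufa6, Ndufa8, Ndufb4, Ndufs5 and Ndufs6), beside 4.60% of 32851 windows of all genes. The ETS motif was found in 4 of 33 (Ndufb6, Ndufb7, Ndufs3 and Ndufs8), beside 8.86% of all windows, and the Yy1 motif in 5 of 33 (Ndufa9, Ndufc1, Ndufs4, Ndufs6 and Ndufs7), beside 1.40%. The receptor motif was found in 1 (Ndufs5, 1.56% of all windows) and the Srebf2 motif in 0 (1.24% of all windows). Among 29 subunit genes of complexes II to V, the Nrf1 motif was found in 9, ETS in 11, Yy1 in 1, the receptor motif in 3 and Srebf2 in 0. The 33 genes were read in 1 window each, the nearest to the annotated start, while all 32851 windows were kept for the comparison. The median GC content before the start was 57.6% in the 33 and 52.4% in all windows. In all 5 Yy1 matches the motif lay within 50 bases after the start. Of the 33 genes, 15 held at least 1 match, and 18 held none.

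Other genes of the pathway were read in the same fit. Of 18 assembly factors in the table, which build the complex but are not part of it, 0 were called in any of the 4 comparisons. Their median log2 fold change was 0.073 in females and 0.080 in males, with the highest values 0.22 for Ndufaf3 in females and 0.45 (SE 0.22) for Ndufaf4 in males. The mitochondrially encoded core subunits, of which 5 of 7 passed the filter, had medians of 0.020 in females and 0.13 in males, with 0 called. Between females and males on chow, mt-Nd2 had a log2 difference of -0.42 (SE 0.13) with an adjusted p of 0.0673. Of the 10 regulators, 0 were called in any comparison. In females Ppargc1b, a coactivator of respiratory genes, had a log2 fold change of -0.54 (SE 0.23) with an adjusted p of 0.432, and Tfam, which maintains mitochondrial DNA, 0.36 (SE 0.13) with an adjusted p of 0.312. Nrf1 itself was at 0.037 (SE 0.19) in females and -0.054 (SE 0.19) in males.

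The 38 subunit genes of complexes II to V gave medians of the same sign as those of complex I in each comparison, at -0.043 in females, 0.099 in males, -0.13 for the difference between the sexes and 0.13 for females over males on chow, with 0 called in each. With the length dependence removed, the complex I medians were -0.11 in females, 0.022 in males, -0.12 for the difference and 0.068 between the sexes on chow. Those of complexes II to V were -0.051, 0.013, -0.081 and 0.080 in the same order. Under that correction 3 of the 38 complex I genes had an unadjusted p under 0.05 in females (Ndufa4l2, Ndufa5 and Ndufa8), beside 12.7% of all genes in that fit, and 0 in males, beside 2.72%. For the difference between the sexes it was 3 of 38, beside 9.68%, and for females against males on chow 5 of 38, beside 28.9%. None passed the adjusted threshold in either statin comparison, where 0.217% of all genes passed in females and 0% in males.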

How the data were processed

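RNA-seq was made from whole liver, with poly(A) selection, of 12 mice in 4 groups of 3. Per the labels and the submitters' processing notes, the authors aligned reads with STAR 2.4.1a to GRCm38, counted them per gene with HTSeq and used edgeR 3.28.1. They deposited CPM values for 48526 genes and a filtered table of 11968 genes above 1 CPM in at least 6 livers. The filtered table is named as TMM-normalized, but its deposited values are raw counts: 0 differ from the reads recovered from the CPM, of which 100% were whole within 0.02 reads. That table also gave the counts used here.

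All 11968 genes were fitted with edgeR 4.0.16 (quasi-likelihood F test, two-sided, TMM, 4 groups in one fit, no covariate), with Benjamini-Hochberg adjustment over all genes and a threshold of 0.05. Standard errors were derived from the fold change and its F statistic. DESeq2 1.42.0 and limma 3.58.1 (log2(CPM + 1) or log2(CPM + 0.1)) were alternatives, beside other normalizations and filters, each sex alone, a replicate block, a correction for transcript length (a loess curve per liver over the genes, entered as an offset) and leaving out each liver. The code was tested on simulated data in which 200 of 11968 genes changed in female statin. At a log2 change of 1, edgeR recovered 116 of them with 9 false calls, DESeq2 145 with 26 and limma 114 with 9. At a log2 change of 2 these were 199 with 11, 200 with 42 and 195 with 10. Each liver came from a different mouse, and replicate numbers only name livers. Depth was 46066381 to 60419223 counts per liver, and the 3 livers per group limit the precision. Counting error was not separated from the spread between mice gene by gene, and it weighs more at low levels such as those of Ndufa4l2. Given in full were the core subunits, Ndufa4, Ndufa4l2, the 3 genes at each end by fold change and the 3 with the lowest p in each comparison, and the 3 most and least like the others. 1 of these genes is counted in the sums, counts and medians but is not reported here by itself. The genes and lists were chosen with earlier results of these data known. Promoter windows came from RefSeq (GRCm38.p6).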

Additional observations from a re-analysis of the deposited data

Results flagged for a closer look

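Among the 3 processed pseudogenes that carry a subunit name and were removed by the authors' filter, the highest count in a statin group exceeded both 3 counts and the highest of the chow group of the same sex in 2. Ndufb4c reached 5 counts in male statin livers, against at most 4 in male chow livers, while in females its counts were 2, 1 and 1 in statin livers against 4, 4 and 6 in chow livers. Ndufs6b reached 14 counts in female statin livers, in liver 3 of that group, against at most 6 in female chow livers, while male chow livers also reached 14. Ndufa11b reached 3 counts in male statin livers, against at most 1 in male chow livers, which is not above 3 counts. All are a few reads per liver, and none was tested.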

How the results depend on the processing

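Across 10 other settings and with each of 12 livers left out in turn, the count of called subunit genes remained 0 in both statin comparisons. It was 1 for the sex difference in response with every gene with a count (Ndufa4l2; 103 of 26304 genes called) and 1 for females against males on chow with the transcript length correction (Ndufa8; 1737 of 11968 genes called), and the cause was not tested. Over all genes, calls in females were 12, against 0 with each sex fitted alone, with the block or without any 1 of 7 of the 12 livers (liver 2 of female chow, liver 3 of female statin, all male chow livers and livers 2 and 3 of male statin), 62 and 75 without livers 1 and 2 of female statin, and 270 with DESeq2. They ran for the sex difference in response from 0 to 130 (DESeq2) against 0, in males from 0 to 4 (DESeq2) against 0, and for females against males on chow from 635 (1 liver left out) to 1946 (DESeq2) against 1250. The replicate numbers did not pair the livers (same-number r -0.54 to 0.15 in females and -0.56 to 0.073 in males), and with the replicate number as a block 0 of 38 genes were called in each comparison, with medians of -0.11 in females and 0.057 in males. Leaving out 1 liver gave medians of -0.22 to 0.067 in females, -0.050 to 0.26 in males, -0.37 to -0.019 for the difference and 0.054 to 0.19 on chow. Of 39 single results, 14 changed sign somewhere, none of them called. In males, Ndufs3 was -0.021 with the length correction and Ndufs7 0.0031 with library size alone. With 1 liver left out, the female log2 fold changes ran from -0.20 to 0.29 for Ndufa4, -0.051 to 0.46 for Ndufa7, -0.090 to 0.045 for Ndufs3, -0.40 to 0.0076 for Ndufs8 and -0.25 to 0.20 for Ndufv2. Without a change of sign they ran from -0.51 to -0.17 for Ndufa8 and -0.40 to -0.092 for Ndufa5. The male ones ran from -0.081 to 0.42 for Ndufa4, -0.0026 to 0.30 for Ndufa6, -0.059 to 0.037 for Ndufs1, -0.053 to 0.081 for Ndufs3, -0.074 to 0.042 for Ndufs7, -0.054 to 0.19 for Ndufs8 and -0.039 to 0.34 for Ndufv2. Without a change of sign they ran from 0.045 to 0.56 for Ndufb8, 0.014 to 0.51 for Ndufs4 and 0.078 to 0.44 for Ndufb3. The difference between the sexes ran from -0.085 to 0.23 for Ndufa1 and -0.048 to 0.30 for Ndufa3, and without a change of sign from -0.95 to -0.27 for Ndufb8.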
